A study of Mus musculus and Ochotona curzoniae and Rattus norvegicus with 18 samples.

Results

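The genes described here are 43 genes of the interferon response and of antigen presentation by MHC class I, listed by symbol and function. No measured level was used as a rule, but the list was drawn up with earlier results of these data known. The list holds the type I interferon receptor chains and their kinases, the STAT and IRF factors, the RNA sensors that start the response, antiviral effectors, the ISG15, ubiquitin and PARP genes, and the MHC class I peptide-loading genes. Of the 43, 37 were found by symbol in both the pika and the mouse table, among 14418 genes joined in this way. A filter on low values kept 33 of the 37, among 10348 genes. MX1, MX2, OAS2, PARP14, IFI44 and IFNAR1 were matched in the mouse table only and are not analysed here in pika. OAS3, RSAD2, CMPK2 and NLRC5 were joined but fell under the filter.

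RNA was sequenced from cultured fibroblasts of 4 species with 3 libraries each, and the pika and mouse libraries are compared here. The pika group held fibroblasts of the Tibetan pika (Ochotona curzoniae), a lagomorph of the high plateau, and the mouse group held fibroblasts of the C57BL/6J strain. Both have epidermis as the tissue on their labels, and both were grown in DMEM with 10% FBS and lysed at 90% confluency. No allele, age, interferon or other agent is named for these cells, so the values describe unstimulated cultures as far as the labels tell. The labels do not tell whether the 3 libraries of each species are separate animals or cultures. The p-values therefore rest on the spread between libraries alone, and this spread may be technical. Library totals were 7703576 to 8481030 reads in pika and 3663102 to 5758950 in mouse.

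Type I interferons bind the receptor chains IFNAR1 and IFNAR2, whose bound kinases TYK2 and JAK1 phosphorylate STAT proteins, STAT2 among them. With IRF9, STAT2 takes part in a complex that binds interferon-stimulated response elements (ISREs) in the promoters of antiviral genes, while other STAT pairs bind gamma-activated sites (GAS). Fibroblasts are classical producers of interferon beta after viral infection, and unstimulated cells keep a low tonic level of many of these transcripts. MHC class I molecules, which pair a heavy chain with beta-2-microglobulin, display peptides that the TAP transporter brings into the endoplasmic reticulum, and interferons raise their expression.

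Mouse promoter sequence is shown because several members varied between the mouse libraries, and ISRE or GAS letters in a promoter are a feature that the list did not use. Windows from 250 bases before to 50 after a RefSeq start (GRCm38.p6) were found by symbol for 34 of the 43 members. That start is not always the outer end of the gene: the Ifit3 window opens at 34583279, inside a gene listed from 34583119. A gene with several windows, such as Adar, Irf1, Irf9 or Ifit2, counted if any of them matched. The share of all windows is per window. The ISRE letters, searched as GAAA, any pair of bases and GAAA again on both strands and allowed to overlap, were present in 12 of the 34 members (35.3%), against 3.35% of the 8235 tested genes with a window and 3.44% of all 32851 windows. The GAS letters TTCNNNGAA, a palindrome, were present in 9 of the 34 members (26.5%), against 7.71% of tested genes and 8.30% of all windows. These letters are part of what such genes are known for, and a match is a description, not evidence of binding. The 250 bases before the start are printed for 4 genes, 5′ to 3′ on the gene's own strand, with the matched letters in capitals. Isg15 (chr4:156200819-156201068, minus strand) is shown because it varied most between the mouse libraries among the tested members, Ifit3 (chr19:34583279-34583528, plus strand) because it differed most between the species, B2m (chr2:122147437-122147686, plus strand) because it carries ISRE letters and had the smallest spread, and Irf1 (chr11:53769764-53770013, plus strand) for its GAS letters.
Isg15: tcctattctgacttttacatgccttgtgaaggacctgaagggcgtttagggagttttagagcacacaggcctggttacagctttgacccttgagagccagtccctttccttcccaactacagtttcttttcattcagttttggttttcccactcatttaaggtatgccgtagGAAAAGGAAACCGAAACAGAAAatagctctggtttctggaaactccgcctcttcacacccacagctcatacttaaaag
Ifit3: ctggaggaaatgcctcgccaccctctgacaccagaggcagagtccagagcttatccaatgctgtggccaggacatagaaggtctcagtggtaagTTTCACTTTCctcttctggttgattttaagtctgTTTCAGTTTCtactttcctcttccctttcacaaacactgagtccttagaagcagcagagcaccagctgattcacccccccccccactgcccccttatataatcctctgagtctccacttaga
B2m: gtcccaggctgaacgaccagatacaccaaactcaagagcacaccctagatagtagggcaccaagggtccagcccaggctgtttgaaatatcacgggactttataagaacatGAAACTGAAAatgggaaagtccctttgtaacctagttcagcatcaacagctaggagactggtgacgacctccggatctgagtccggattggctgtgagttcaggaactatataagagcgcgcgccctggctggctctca
Irf1: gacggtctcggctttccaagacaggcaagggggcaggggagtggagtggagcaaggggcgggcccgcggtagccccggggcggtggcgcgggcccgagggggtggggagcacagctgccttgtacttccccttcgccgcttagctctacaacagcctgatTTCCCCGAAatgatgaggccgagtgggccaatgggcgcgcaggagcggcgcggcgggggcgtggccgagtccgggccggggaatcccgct
In Isg15, 3 overlapping ISRE matches began 78, 72 and 66 bases before the start. Ifit3 held a pair of matches on the opposite strand, at 156 and 122 bases, and B2m a single match at 139 bases. The GAS letters of Irf1 began at 90 bases. The same letters were found in the windows of Bst2, Ddx58, Ifih1, Stat2, Irf2, Eif2ak2, Trim21, Oas3 and Rsad2 for the ISRE.

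The comparison asks which of these genes differ in resting level between pika and mouse fibroblasts. Most of the tested members stood lower in pika. Levels are the deposited FPKM (fragments per length of gene model and per library total) rescaled so that the joined genes of each library sum to 1000000, and differences are log2(rescaled FPKM + 1), pika minus mouse, a scale that understates the change of low genes. Calls required an adjusted p under 0.05 (limma-trend, Benjamini-Hochberg over all 10348 genes) together with an absolute log2 difference of at least 1. Of the 33 members, 18 were called lower in pika (54.5%), 2 were called higher (6.06%) and 13 were not called, with positive differences for IRF3, IRF1 and IFNAR2 and negative ones for the other 10. Over all tested genes, 23.5% were called lower, 28.7% higher and 52.2% in either direction. The median log2 difference of the tested members was -1.21, against 0.21 over all tested genes, and 28 of the 33 lay below that all-gene median. Every pika library was below every mouse library for 26 members and above every one for 5, where 39.4% and 49.6% of all tested genes do so, and the species overlapped for EIF2AK2 and PARP9. IFIT2, IFIT3, USP18 and XAF1, 4 of the 18, passed the filter only through their mouse level and so had to differ. The counts are therefore a description.

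The scale matters for the members with moderate differences. On the deposited FPKM without rescaling, the median of all tested genes moved to 1.29 and that of the members to -0.03, 7 members were called higher and 10 lower, and again 28 of 33 lay below the all-gene median. Higher calls made up 55.0% of all calls after rescaling, 84.5% without it, 48.9% with a median-of-ratios scaling and 48.4% on reads without gene length. The gene models of the members were longer in mouse than in pika, by a median ratio of 1.97 against 2.26 for all tested genes. Species, genome and annotation cannot be told apart in this comparison.

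**Figure D1:**
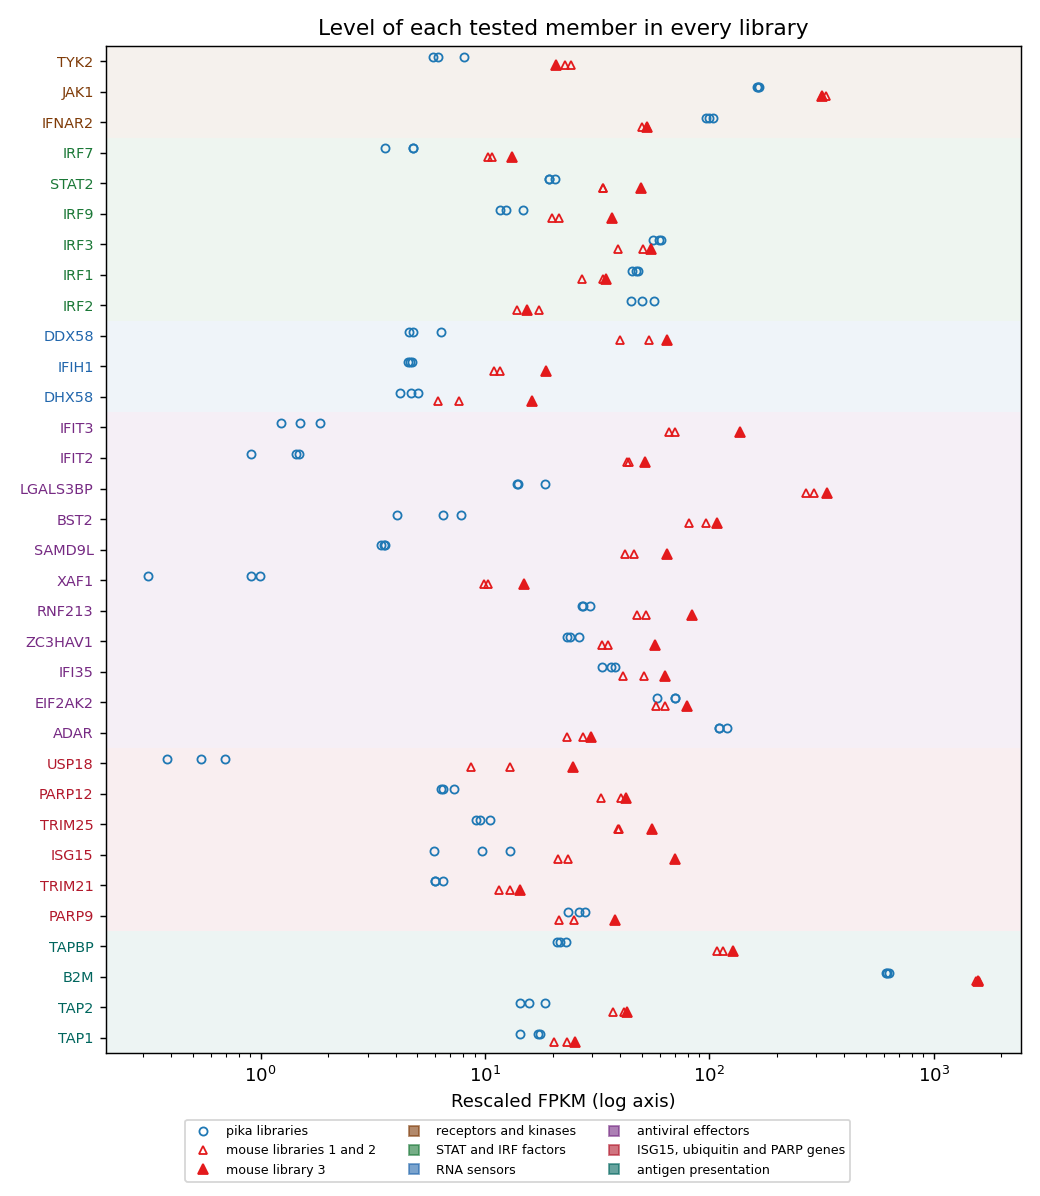
Rescaled FPKM of the 33 tested members (log axis) in each library, with circles for the 3 pika libraries, open triangles for mouse libraries 1 and 2 and filled triangles for mouse library 3; gene names are coloured by role. For most members the circles lie left of all triangles, while ADAR, IRF2, IFNAR2, IRF1 and IRF3 show the opposite order. The filled triangle is the rightmost mouse point for 28 of 33.

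Among the receptor chains and kinases, the receptor chain IFNAR2 stood higher in pika and both kinases lower. IFNAR2 had levels of 96.2, 99.8 and 103 in pika and 52.9, 50.01 and 52.5 in mouse, with a log2 difference of 0.93 that is under the fold needed for a call. JAK1, the kinase bound to IFNAR2, stood at 164, 164 and 167 in pika and at 331, 317 and 319 in mouse, and its log2 difference of -0.96 (SE 0.03) also fell just short. TYK2, the kinase bound to IFNAR1, was called lower, with 5.84, 8.06 and 6.19 in pika against 22.7, 24.2 and 20.6 in mouse (log2 -1.62, SE 0.14, limma-trend adjusted p = 2.8e-06). The species did not overlap for any of these 3 genes, and the mouse SDs were small, 1.58 for IFNAR2, 7.36 for JAK1 and 1.81 for TYK2. IFNAR1, read in mouse only, was at 60.5 ± 2.89 (SD, n = 3), which is close to IFNAR2. The directions of JAK1 and IFNAR2 depend on the scale: without rescaling JAK1 was at 0.33, on reads without gene length IFNAR2 was at -0.01, and TYK2 lost its call without rescaling (-0.36).

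The STAT and IRF factors were split. IRF2, which competes with IRF1 at the same promoter sites and is mostly a repressor there, was called higher in pika, with 44.6, 56.7 and 50.03 against 13.9, 17.4 and 15.4 in mouse (log2 1.63, SE 0.12, limma-trend adjusted p = 6.8e-07). IRF7, the factor that amplifies interferon alpha production, was called lower, at 4.76, 4.79 and 3.57 against 10.4, 10.7 and 13.2 (log2 -1.21, SE 0.16). Every library of one species was beyond every library of the other for both genes. STAT2 and IRF9, members of the ISRE-binding complex, had log2 differences of -0.92 (SE 0.15) and -0.91 (SE 0.21), short of a call. STAT2 stood at 20.5, 19.3 and 19.3 in pika and at 33.5, 33.6 and 49.6 in mouse, and IRF9 at 11.6, 12.5 and 14.7 in pika and at 21.3, 19.9 and 37.0 in mouse. In both, the third mouse library stood well above the other two. IRF1, an activator of MHC class I genes, and IRF3, which switches on interferon beta after RNA sensing, had differences of 0.55 and 0.30 and mouse levels of 31.7 ± 4.20 and 48.0 ± 8.12. The call of IRF2 was lost on reads without gene length (0.19) and that of IRF7 without rescaling (-0.06). Under the same settings IRF1 turned to -0.41, and STAT2 and IRF9 to 0.30 and 0.28.

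All 3 cytosolic RNA sensors stood lower in pika, with no overlap between the species. DDX58 (RIG-I), which binds viral RNA ends, was at 4.61, 6.34 and 4.78 in pika and at 53.8, 39.8 and 65.0 in mouse, a mean 10.1-fold higher in mouse, or 4.11-fold on the deposited FPKM (log2 -3.09, SE 0.18, limma-trend adjusted p = 1.8e-07). IFIH1 (MDA5), which binds long double-stranded RNA, was at 4.74, 4.56 and 4.63 against 11.0, 11.7 and 18.7 (log2 -1.35, SE 0.19, limma-trend adjusted p = 0.00011). The pika libraries were nearly level for IFIH1, while the mouse SD was 4.28. DHX58 (LGP2), the regulator of the other two, was not called, at 4.17, 4.67 and 5.01 against 7.69, 6.19 and 16.2 (log2 -0.87, SE 0.29). The larger part of its mouse spread lay in the third library. Without rescaling IFIH1 lost its call (-0.17) and DHX58 turned to 0.17.

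The antiviral effectors held the largest differences: 7 of the 11 tested were called lower, 1 higher and 3 not at all. The IFIT proteins bind viral RNA and limit its translation. IFIT3 stood at 1.84, 1.23 and 1.49 in pika, from 47 reads in all, and at 70.0, 66.4 and 136 in mouse, from 426 reads, so that the mouse mean was 59.8-fold higher (log2 -5.11, SE 0.25, limma-trend adjusted p = 5e-08). That fold depends on the scale: the means of the deposited FPKM differed 24.4-fold, the log2 difference was -3.34 without rescaling and -3.63 on reads without gene length, and the pika gene model is the longer one here, 2735 against 1745 bases. IFIT2 stood at 0.908, 1.44 and 1.48 against 42.96, 43.9 and 51.9 (log2 -4.38, SE 0.15). Both genes were thus near the floor in pika and of middle abundance in mouse. LGALS3BP, a secreted glycoprotein, was at 18.6, 14.01 and 13.9 in pika and at 271, 292 and 334 in mouse (log2 -4.19, SE 0.12), and with 2262 mouse reads it was among the best measured of the effectors. BST2 (tetherin), which holds budding virions at the cell surface, was at 4.05, 7.83 and 6.49 against 81.5, 96.2 and 108 (log2 -3.78, SE 0.20). SAMD9L, a restriction factor of poxviruses, was at 3.60, 3.43 and 3.56 against 42.3, 46.2 and 64.7 (log2 -3.50, SE 0.16). Of the called effectors XAF1 had the fewest reads in pika, 7 in all. This antagonist of the apoptosis inhibitor XIAP was at 0.315, 0.996 and 0.907 in pika and at 10.3, 9.88 and 14.9 in mouse (log2 -2.87, SE 0.22). Without rescaling the other 5 effectors given here were still called lower: IFIT2 at -2.61, LGALS3BP at -2.82, BST2 at -2.32, SAMD9L at -1.99 and XAF1 at -1.25.

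RNF213, a very large ubiquitin ligase that coats pathogens, differed less, at 29.4, 27.1 and 27.4 in pika and at 52.3, 47.5 and 84.0 in mouse (log2 -1.06, SE 0.18). Its call rested on the third mouse library: without it the difference was -0.81 and no longer called, on reads without gene length it was -0.22, and without rescaling it turned to 0.19. ZC3HAV1 (ZAP), which targets CpG-rich viral RNA, and IFI35 were not called, with log2 differences of -0.71 and -0.50 and mouse levels of 41.9 ± 13.2 and 51.9 ± 11.2 (SD, n = 3); both turned positive without rescaling (0.50 and 0.73). EIF2AK2 (PKR), which halts translation on double-stranded RNA, was at 70.5, 58.6 and 70.2 in pika and at 57.8, 63.7 and 79.9 in mouse, with overlapping libraries and a log2 difference of -0.01 (SE 0.12). ADAR, which edits adenosine to inosine in double-stranded RNA and so keeps the cell's own RNA from the sensors, went the other way. It stood at 110, 119 and 111 in pika and at 27.4, 23.2 and 29.7 in mouse, and was called higher (log2 2.05, SE 0.09, limma-trend adjusted p = 2.3e-08). It kept this call under every alternative run.

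The low or unmatched effectors can only be described. In mouse, MX1 was at 0.887 ± 0.547 from 8 reads, MX2 at 4.10 ± 2.22, OAS2 at 0.841 ± 0.349 and IFI44 at 3.77 ± 1.11 (SD, n = 3). MX1 and MX2 are dynamin-like GTPases that block incoming viruses, and the C57BL/6 strain is known to carry a defective Mx1 gene. OAS2 and OAS3 are oligoadenylate synthetases that activate RNase L, and OAS3 was at 0.785 ± 0.430 in pika and at 0.827 ± 0.586 in mouse, from 26 and 14 reads. RSAD2 (viperin) was at 2.71 ± 1.24 in mouse and had 1 read in all pika libraries, and its neighbour CMPK2, a nucleotide kinase, was at 0.25 ± 0.243 in pika and at 2.49 ± 0.879 in mouse. For MX1, OAS2, RSAD2 and CMPK2, with 8 to 21 mouse reads, the mouse coefficients of variation (SD over mean) of 61.7%, 41.5%, 45.9% and 35.3% were within 0.5 points of what counting alone gives or below it. MX2, with 41 reads, had 54.2% where counting gives 27.5%, OAS3 70.9% where it gives 47.1%, and IFI44 29.5% where it gives 22.4%.

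Of the 6 tested ISG15, ubiquitin and PARP genes, 4 were called lower in pika and none higher. ISG15, a ubiquitin-like protein that is joined to other proteins and is also secreted, stood at 13.0, 5.94 and 9.74 in pika and at 23.4, 21.1 and 70.3 in mouse (log2 -1.74, SE 0.43, limma-trend adjusted p = 0.0037). It was the least precise of the called members: the third mouse library was far above the others, and without it the difference was -1.196 and still called, while without rescaling it was -0.47 and not called. USP18, which removes ISG15 and also dampens signalling at IFNAR2, was at 0.544, 0.382 and 0.697 against 8.69, 13.0 and 24.6 (log2 -3.30, SE 0.31). PARP12, an ADP-ribosyltransferase with activity against RNA viruses, was at 7.25, 6.48 and 6.36 against 40.4, 32.98 and 42.7 (log2 -2.36, SE 0.12). TRIM25, a ubiquitin ligase that acts with RIG-I, was at 9.10, 10.6 and 9.48 against 39.2, 39.8 and 55.6 (log2 -2.08, SE 0.14), and lost its call without rescaling (-0.77). TRIM21, the cytosolic antibody receptor, was at 6.16 ± 0.302 in pika and at 12.9 ± 1.38 in mouse and just short of a call (-0.95). PARP9 overlapped between the species, with 25.9 ± 2.32 in pika and 28.1 ± 8.70 in mouse. PARP14, read in mouse only, was at 12.1, 10.6 and 18.9. Without rescaling TRIM21 was at 0.17 and PARP9 at 1.07.

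Among the antigen presentation genes, 3 of the 4 tested were called lower in pika. TAPBP (tapasin), which ties MHC class I to the peptide transporter, was at 20.98, 22.9 and 21.5 in pika and at 108, 115 and 127 in mouse (log2 -2.37, SE 0.08, limma-trend adjusted p = 2.7e-09). The TAP transporter is built from TAP1 and TAP2 in pairs. TAP2 was at 18.5, 14.3 and 15.7 against 37.2, 41.7 and 43.04 (log2 -1.29, SE 0.11), while TAP1 was at 17.2, 17.5 and 14.3 against 23.2, 20.4 and 25.3 (log2 -0.46, SE 0.12) and was not called. B2M, the light chain of every MHC class I molecule, was the most abundant member, at 613, 635 and 622 in pika and at 1590, 1539 and 1569 in mouse (log2 -1.33, SE 0.03, limma-trend adjusted p = 1.5e-10). Its deposited FPKM were almost the same, 283, 294 and 288 in pika and 296, 290 and 299 in mouse, on gene models of 887 and 860 bases. The log2 difference of B2M was thus -0.03 without rescaling, and it was -0.24 on reads without gene length. TAP2 likewise was at -0.04 without rescaling, and TAP1 turned to 0.69, while TAPBP kept its call at -1.05. NLRC5, the transactivator of MHC class I genes, was at 1.19 ± 0.433 in pika and at 4.22 ± 1.603 in mouse and was not tested. The mouse heavy chain genes H2-K1 and H2-D1, which are outside the lists and were looked at after the other values, stood at 88.6, 94.9 and 103 and at 173, 170 and 170.

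**Figure D2:**
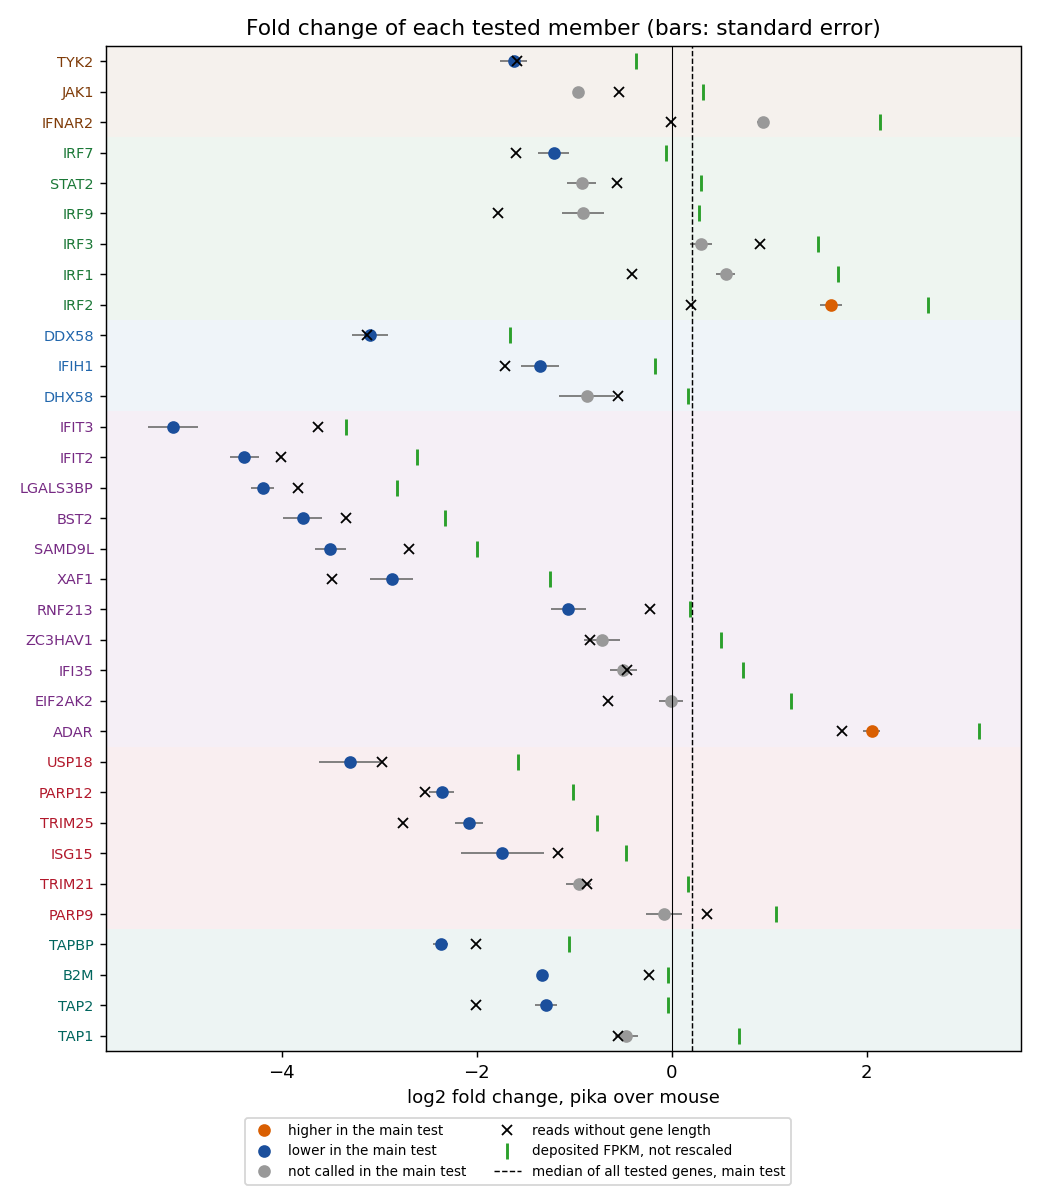
Log2 difference, pika over mouse, of the 33 tested members on the horizontal axis, with filled points and standard errors for the rescaled FPKM, crosses for reads without gene length and ticks for the deposited FPKM without rescaling. IFIT3, IFIT2, LGALS3BP and BST2 lie below -2 on all 3 scales drawn, ADAR above 1.5, and JAK1, RNF213, TAP1 and others cross 0.

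The spread between the 3 mouse libraries ranged from a coefficient of variation of 1.64% for B2M to 72.6% for ISG15, with a median of 16.9% over the 33 tested members. The median over all tested genes was 7.80% in mouse, and the members' median in pika was 8.95%. USP18 (53.4%), DHX58 (54.0%) and IFIT3 (43.4%) followed ISG15, while JAK1 (2.29%), IFNAR2 (3.04%) and TAP2 (7.503%) were at the low end with B2M. In 27 of the 33 members the mouse spread exceeded what counting of their reads alone would give, and in 15 it was more than 2 times that. These shares were not worked out over all tested genes, so the counts only describe the members. For IFIT3 counting gives 8.53%, and for RNF213, with 2783 mouse reads, it gives 3.34% where 32.3% was seen.

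This spread had a direction. Mouse library 3 was the highest of the 3 for 28 of the 33 tested members (84.8%), against 35.1% of all tested genes, and on the deposited FPKM for 30 of 33, against 41.1%. Mouse libraries 1 and 2 were the highest for 3 and 2 members, against 29.1% and 35.8% of all tested genes. In pika, libraries 1, 2 and 3 were the highest for 14, 11 and 8 members, against 3706, 3154 and 3488 of the 10348 tested genes. Library 3 was neither the deepest nor the shallowest of the mouse libraries. The level in library 3 over that in libraries 1 and 2 pooled was worked out from the reads, with a 95% exact binomial interval that covers counting error only. This ratio had a median of 1.26 over the 33 members and of 1.01 over all tested genes. It was 1.5 or more for 9 of the 33 members (27.3%), against 1.45% of the 9561 tested genes with at least 30 mouse reads. The interval lay wholly above 1 for 18 of the 33 and wholly below 1 for none. The share of all tested genes with such an interval was not worked out, so this count only describes the members.

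Without library 3, 17 members in place of 18 were called lower in pika, RNF213 being the one lost. The members highest in library 3 relative to the others were mostly effectors, sensors and genes of the ISG15 system. ISG15 had 19, 11 and 48 reads in libraries 1 to 3, a ratio of 3.12 (1.94 to 5.11). USP18 had a ratio of 2.37 (1.61 to 3.51), DHX58 of 2.29 (1.47 to 3.56) and IFIT3 of 1.99 (1.64 to 2.42). RNF213 gave the narrowest interval above 1.5, at 1.66 (1.54 to 1.80). IRF9, PARP9, IFIH1 and ZC3HAV1, the remaining tested members at 1.5 or more, lay between 1.65 and 1.78. Library 3 was the highest for 11 of 11 effectors, 6 of 6 ISG15, ubiquitin and PARP genes, 3 of 3 sensors, 5 of 6 STAT and IRF factors, 3 of 4 antigen presentation genes and 0 of 3 receptors and kinases. The receptor chains and kinases were flat, with IFNAR1 at 0.98, IFNAR2 at 1.01, JAK1 at 0.98 (0.93 to 1.03) and TYK2 at 0.89 (0.71 to 1.10). The presentation genes were mixed, with B2M at 1.00 (0.93 to 1.07), TAP2 at 1.10 (0.90 to 1.36), TAP1 at 1.15 (0.91 to 1.44), TAPBP at 1.15 (1.01 to 1.31) and the untested NLRC5 at 1.64 (1.06 to 2.52). Among the other untested members with enough reads, MX2 was at 2.05 (1.06 to 3.99), PARP14 at 1.64 (1.32 to 2.04) and IFI44 at 1.61 (0.94 to 2.73).

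**Figure D3:**
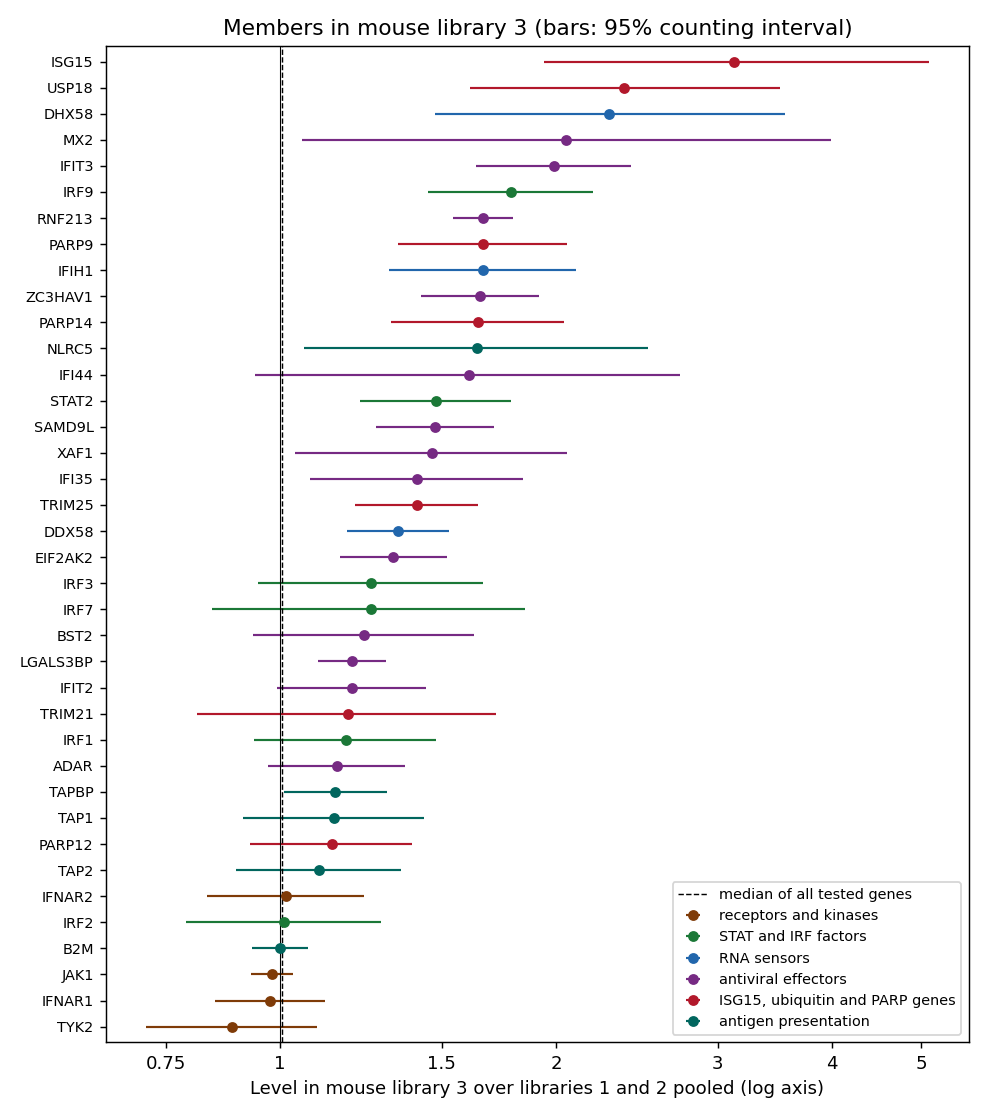
Level in mouse library 3 over libraries 1 and 2 pooled (log axis) for the 38 members with at least 30 mouse reads, tested or not, coloured by role; bars are 95% exact binomial intervals for counting error and the dashed line is the median of all tested genes. ISG15, USP18 and DHX58 lie farthest right, and JAK1, IFNAR1, IFNAR2, TYK2 and B2M lie at about 1.

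The printed genes were partly chosen for their spread, so their own ratios cannot be used to judge a relation to the number of matches. Bst2 and Trim21, with 2 ISRE matches each, had ratios of 1.24 (0.94 to 1.63) and 1.19 (0.81 to 1.72), and Irf1, with GAS letters but no ISRE letters, of 1.18 (0.94 to 1.48). Over the members with a window and at least 30 mouse reads, the median ratio was 1.34 for the 10 with ISRE letters (range 1.00 to 3.12, 3 at 1.5 or more) and 1.197 for the 21 without (range 0.89 to 1.78, 4 at 1.5 or more). The 9 members without a window are in neither group. Those of them with at least 30 mouse reads were USP18 at 2.37, DHX58 at 2.29, MX2 at 2.05, PARP9 at 1.66, PARP14 at 1.64, NLRC5 at 1.64 and TAP2 at 1.10. The split therefore leaves out several of the highest ratios. The ranges of the 2 groups overlap, and no test was made.

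In the other lists, library 3 was the highest mouse library for 14 of 21 interferon-stimulated genes, 8 of 14 receptor, JAK and STAT genes, 6 of 14 nucleic acid sensing genes, 6 of 14 antigen presentation genes and 2 of 11 fibroblast markers, against the 35.1% of all tested genes. RTP4 was at 5.69, 10.2 and 23.4 and DTX3L, the partner of PARP9, at 15.8, 16.4 and 27.7, and IFIT1, matched in mouse only, was at 21.4, 23.4 and 63.4; these 3 were chosen after their values were seen. Of the interferon genes themselves, IFNB1, IFNK and IFNG were listed at 0 in all 6 libraries and IFNE in all but 1 pika library. The summed level of the 14 joined leukocyte and macrophage markers was 39.8, 43.7 and 52.1 in mouse libraries 1 to 3 and 15.1 to 16.7 in pika. CD68, a lysosomal protein abundant in macrophages, was at 8.90, 17.3 and 21.1. The smallest whole reads that fit these values were 4, 5 and 8, giving a ratio of 1.74 (0.58 to 5.07). Reads worked out in this way, here and for the other markers, may be too small by a shared whole-number factor. The interval is then too wide. CSF1R was at 11.1, 11.6 and 14.05 (ratio 1.25, 0.89 to 1.73). Other markers of the list went both ways, from few reads. CD14 was at 11.3, 6.45 and 6.34 (35 reads, ratio 0.68, 0.28 to 1.49). ITGAM was at 2.597, 1.73 and 1.54 (27 reads, 0.68, 0.24 to 1.68). MRC1 was at 0.88, 2.95 and 1.04 (25 reads, 0.62, 0.20 to 1.61). Highest in library 3 were FCER1G (1.07, 1.66 and 2.53), TYROBP (2.79, 0 and 3.32), ITGAX (0.19, 0.90 and 0.92) and AIF1 (0.61, 0 and 0.72). These had 4, 4, 8 and 2 mouse reads. In pika CD14 was at 10.5 to 11.1. The defining leukocyte gene PTPRC (CD45) was at 0.10 to 0.16 in mouse and 0 in pika, and CD3E and CD163 were at 0 in all 6 libraries. The part of these markers in the result was not tested.

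The fibroblast label was checked against marker genes. COL1A1 and VIM were abundant in both species, with COL1A1 at 4638 to 4871 in pika and 4677 to 4896 in mouse. Of the 11 fibroblast markers joined, 2 were called higher in pika (18.2%) and 4 lower (36.4%), against 28.7% and 23.5% of all tested genes. The markers differed in both directions. COL3A1 was at 21.3 to 24.2 in pika and at 938 to 971 in mouse (log2 -5.32) and PDGFRA at 3.10 to 3.77 and 61.1 to 69.5 (-3.89), while FAP was at 40.6 to 42.4 in pika and 0.51 to 1.81 in mouse (4.31) and DCN at 259 to 284 and 105 to 131 (1.22). FAP passed the filter only through its pika level and so had to be higher on the deposited FPKM. Keratinocyte markers summed to 1.14 to 1.25 in pika and 63.5 to 67.8 in mouse, of which DSP gave 42.7 to 46.9. In mouse SFN gave 9.25 to 12.4, KRT10 4.41 to 5.48, IVL 0.576 to 4.36 and LOR 1.24 to 2.10. In pika SFN was at 1.01 to 1.10, and KRT10, IVL and LOR were at 0. KRT5 and KRT14 were at or near 0 throughout. Endothelial markers summed to 0.707 to 1.604 in pika and 34.8 to 39.5 in mouse, most of it TEK. The part of these markers in the differences between the species was not tested, and fewer cells of a type and less RNA per cell cannot be told apart in bulk RNA.

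Other genes of the pathway showed how far the pattern reached on the rescaled levels. Without rescaling the median of all tested genes moved from 0.21 to 1.29, so moderate differences and list medians here depend on the scale. The values of these lists without rescaling are not given here. Of 21 other interferon-stimulated genes tested, 10 were called lower in pika, 3 higher and 8 not at all, with a median log2 difference of -0.87. Of the 10 lower calls, 5 (GBP2, ISG20, PARP10, RTP4 and HERC6) passed the filter only through their mouse level and so had to be lower, and of the 3 higher calls 2 passed only through pika. These counts are read beside 23.5% lower and 28.7% higher over all tested genes, and as a description. GBP2, a GTPase that attacks pathogen vacuoles, was at 0.311 ± 0.279 in pika and at 48.3 ± 0.972 in mouse (log2 -5.26), and ISG20, an RNA exonuclease, PARP10 and PML, the scaffold of nuclear bodies, were called lower at -4.09, -3.31 and -2.83. GBP2 was flat across the mouse libraries, at 48.9, 47.2 and 48.8. Of 14 other receptor, JAK and STAT genes, 4 were called lower, 2 higher and 8 not at all, with a median of -0.04, so that the 28.6% called lower was near the 23.5% of all tested genes. IRF5 (-3.40), the interleukin-10 receptor chain IL10RB (-2.90) and the interferon gamma receptor chain IFNGR2 (-2.43) were lower, and the phosphatase PTPN2, which dampens JAK and STAT signalling, was higher (1.39).

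In nucleic acid sensing, 6 of 14 genes were called lower, 4 higher and 4 not at all (42.9% lower and 28.6% higher), with a median of -0.47. TMEM173 (STING), the adaptor of DNA sensing, was at 11.0 ± 2.06 in pika and at 93.6 ± 7.36 in mouse (log2 -2.99), and the endosomal RNA receptor TLR3 and the RIG-I adaptor MAVS were lower at -2.33 and -2.17, though TLR3 passed the filter only through its mouse level and had to be lower. TRAF6, a ubiquitin ligase of Toll-like receptor signalling, was higher at 1.74. Of 14 other antigen presentation genes, 2 were called lower, 1 higher and 11 not at all, both shares below those of all tested genes, with a median of -0.08. The lower ones were the protease CTSS (-3.09), which passed the filter only through mouse, and the peptide editor TAPBPL (-1.69), and the higher one was the proteasome activator subunit PSME1 (1.202).

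**Figure D4:**
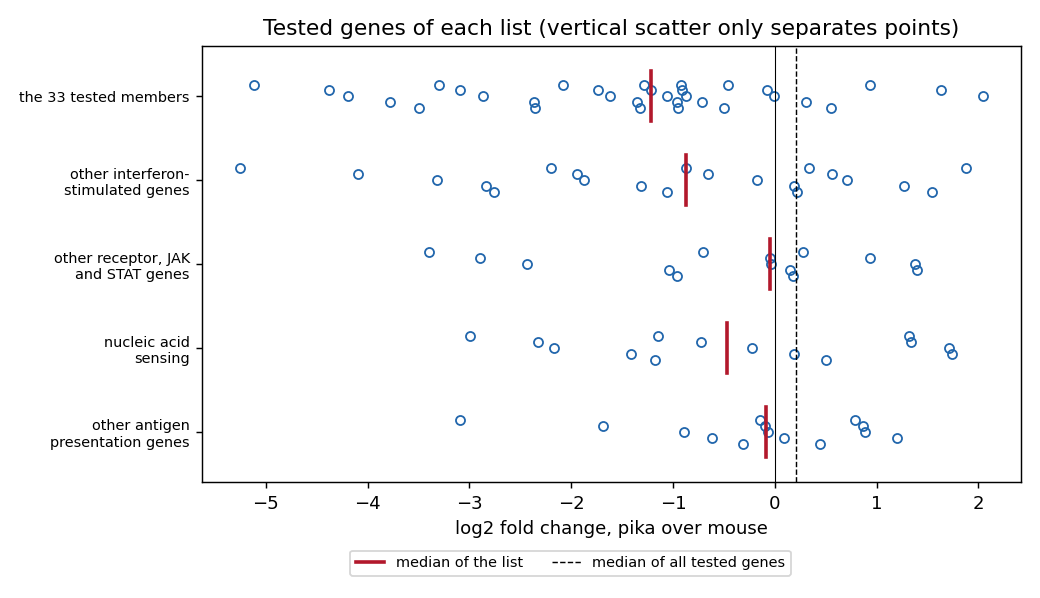
Log2 difference of the rescaled FPKM, pika over mouse, of each tested gene (horizontal axis) in the members and in 4 further lists. Red bars are list medians and the dashed line is the median of all tested genes. The medians are -1.21 for the members, -0.87 for the other interferon-stimulated genes, -0.47 for nucleic acid sensing, and -0.04 and -0.08 for the other receptor and antigen presentation lists.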

How the data were processed

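RNA-seq values of 3 pika and 3 mouse fibroblast libraries were used. The authors deposited 1 FPKM value per gene and library. The submitters' processing notes name CASAVA 1.9, STAR 2.6.1a, featureCounts and edgeR 3.28.1, with no role or order, and GRCm38 as the only build. The aligner settings and the pika genome are not given in the sources used here. Pika rows carry symbols, and the mouse Ensembl identifiers were named from a reference list of gene identifiers and symbols. A symbol found in both joined 14418 genes, which held about 87.1% of the FPKM in pika and 37.0% to 38.3% in mouse, and 24 date-like pika rows were left out.

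Values of the joined genes were rescaled to a sum of 1000000 in each library. Genes passed the filter when the mean of the deposited FPKM reached 1 in either species, and log2(value + 1) was fitted by limma-trend (limma 3.58.1, R 4.3.3), two-sided, with Benjamini-Hochberg adjustment. Whole reads were worked out from the FPKM steps (tolerance 5e-05 reads), and may be too small by a whole-number factor shared by all libraries of a gene. The steps were tested on simulated data. Since FPKM is not a count, no count test was the main result.

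The members and lists were chosen with earlier results of these data known. All 43 members may be named, and from each other list up to 4 called genes with the largest differences, plus defining cell type markers at 0. Named outside this rule after their values were seen were RTP4, DTX3L, IFIT1, HERC6, H2-K1, H2-D1, PTPRC, CD14, ITGAM, MRC1, COL1A1, VIM, KRT5 and KRT14. FCER1G, TYROBP, ITGAX, AIF1, KRT10, IVL and LOR were also named in this way. Same-numbered libraries of the 2 species did not deviate together (r = -0.009, 0.048 and 0.009), so numbers were not used as pairs. The rat and rabbit libraries, whose rows are not paired with symbols, and 6 ChIP-seq samples are not analysed here. 1 gene of the receptor, JAK and STAT list is not reported by name here. Tables were drawn up in Python 3.11.15. Alternatives covered scaling, pseudocount, filter, test, replicate block and each library left out.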

Additional observations from a re-analysis of the deposited data

How the results depend on the processing

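Scaling moved the members most. On the deposited FPKM without rescaling, 7 members were called higher and 10 lower, and STAT2 (0.30), IRF9 (0.28), DHX58 (0.17), EIF2AK2 (1.22), PARP9 (1.07), TRIM21 (0.17), RNF213 (0.19), TAP1 (0.69), IFI35 (0.73), ZC3HAV1 (0.50) and JAK1 (0.33) turned positive, by construction of the shift in all genes. On reads without gene length, 1 member was called higher and 17 lower, with IRF1 at -0.41, PARP9 at 0.36 and IFNAR2 at -0.0051, and the cause was not tested gene by gene. EIF2AK2, at about 0, became 0.0031 with voom. Leaving out 1 library at a time moved it between -0.1065 (mouse library 1) and 0.12 (mouse library 3), with 0.0794 without pika library 2, and moved PARP9 between -0.2441 (mouse library 1) and 0.15 (mouse library 3). The same omissions gave 2 members higher throughout, 17 to 21 lower and 5386 to 5411 genes called in all, with STAT2 and IRF9 newly called lower without mouse library 1 (also TRIM21) or 2 (also DHX58), and RNF213 lost without mouse library 3. The other settings gave 2 higher and 13 (filter at 5 FPKM, 26 members tested) to 23 lower (median-of-ratios scaling). With the replicate number as a block, 2 members were higher, 18 lower and 5405 genes called, against 5403 without the block, and the call of no member changed. Genes with few reads, such as XAF1 and USP18 in pika, are limited by depth.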
